A study of Rattus norvegicus with 6 samples.

Results

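Knockdown of SLC2A10 with 2 different short hairpin RNA sequences was compared in rat vascular smooth muscle cells (VSMCs), which form the muscle layer of the artery wall. The comparison takes the 2 libraries of interference sequence 3 against the 2 libraries of interference sequence 2, which are 4 of the 6 libraries of the series. Its features are gene loci, and a locus was kept when its level was at least 1 FPKM in at least 2 of these 4 libraries. FPKM is a fragment count corrected for how long the transcript is and how many fragments the library held. Of 13685 loci in the files, 10316 were kept and tested. The question was which loci differ between the 2 hairpins.

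SLC2A10 encodes GLUT10, a member of the facilitative glucose transporter family whose loss causes arterial tortuosity syndrome, a disease of elongated and twisted large arteries. A short hairpin RNA is transcribed from a virus, cut by the nuclease Dicer into a short duplex, and loaded into an Argonaute protein that silences messages matching the guide strand. Hairpins against the same message share that target, while the messages that match only part of a guide strand differ from hairpin to hairpin, and for this reason knockdown studies use more than 1 sequence.

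All libraries carry the strain label SD and the organism rat, and the paper describes male Sprague-Dawley rats whose aortic VSMCs were used at passage 3, with no age given. The sequence 2 and sequence 3 groups are labelled SLC2A10-/-, although the paper describes infection with shRNA virus, not a gene deletion. The 2 remaining libraries are labelled wild type and received control virus, and they were used for the shared spread and as a reference level. The titles say siRNA, the extraction label speaks of frozen aorta and the design text of mice, so the sources do not settle if the RNA came from cultured cells or tissue. No label says whether the 2 libraries of a sequence came from separate cultures, so p-values measure only the spread between libraries, which may be technical. Fewer cells of a kind and less RNA per cell cannot be told apart in such bulk RNA.

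The files identify loci by Ensembl gene IDs, and 0 of the 9959 IDs among the tested loci could be paired with a gene name in the tables used here. SLC2A10, the gene lists and the cell type markers were therefore not analysed here, and the knockdown itself is unchecked. Loci are given by chromosome and position as the deposited files give them, in a genome build not stated in the sources used here. The number of reads behind a value is unknown. The libraries listed 11564 to 11856 loci each, with replicate 2 of sequence 3 at the lowest number. This library stood apart, with 12837 starts of transcripts where the other 5 had at least 13305.

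Libraries of different hairpins differed by about as much as replicates of 1 hairpin did. Pearson's r of log2(FPKM + 1) across tested loci, which are not independent replicates, was 0.971 between the libraries of sequence 2 and 0.956 between those of sequence 3. Between the sequences it was 0.949 to 0.970. The share of tested loci more than 2-fold apart on the log2(FPKM + 1) scale was 2.94% within sequence 2 and 5.02% within sequence 3. It was 3.28% and 3.54% between replicate 1 of sequence 3 and the libraries of sequence 2, and 4.66% and 6.14% between replicate 2 of sequence 3 and the same libraries. Replicate 1 of sequence 3 was thus nearer to both libraries of the other hairpin than to its own replicate.

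**Figure D1:**
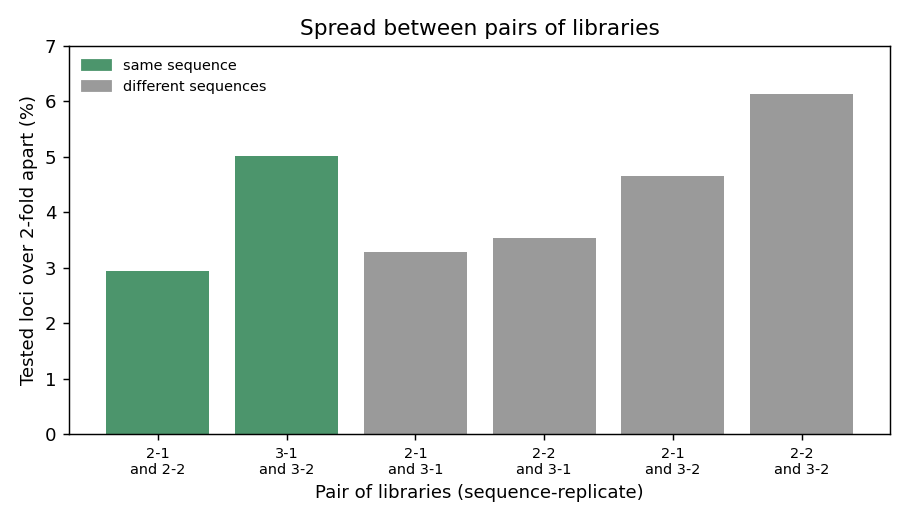
Percentage of 10316 tested loci more than 2-fold apart on log2(FPKM + 1), for each pair of the 4 libraries named by sequence and replicate. The pair of sequence 3 replicates, at 5.02%, exceeds 3 of the 4 pairs of different sequences, and all pairs with replicate 3-2 stand above those without it.

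At an adjusted p under 0.05 from limma, 15 loci passed the test between the hairpins, 8 lower and 7 higher with sequence 3. These are 0.0775% and 0.0679% of the loci tested. Of the 15, 12 were under 1 FPKM in both libraries of one hairpin, so they passed the filter only through the hairpin where they were high and had to differ. Their p-values are given as a description, and the number of calls is no support for a difference between the hairpins. With at least 1 FPKM required in all 4 libraries, 0 loci were called by limma and 507 of 9326 had an unadjusted p under 0.05. Of the 10316 loci tested in the report, 565 had an unadjusted p under 0.05 from limma, 154 lower and 411 higher. Loci with no difference can also pass this limit, and 565 is close to the share it passes where no locus differs. The number of calls depended on single libraries. Leaving out either control library gave 8 calls. Leaving out replicate 1 of sequence 2 gave 1 call, and leaving out replicate 2 gave 0 from limma, where 372 loci had an unadjusted p under 0.05. Leaving out a library of sequence 3 gave 11 calls (replicate 1) or 16 (replicate 2), 4 of them shared with the 15 in each case. With only the 4 libraries of the hairpins it was 7. The called loci were mostly at low levels, and 11 of the 15 were listed in both libraries of one hairpin and at 0 in both libraries of the other. A 0 means that no transcript start or end was listed, which can be a failed estimate. Only 3 called loci were listed in all 4 libraries.

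**Figure D2:**
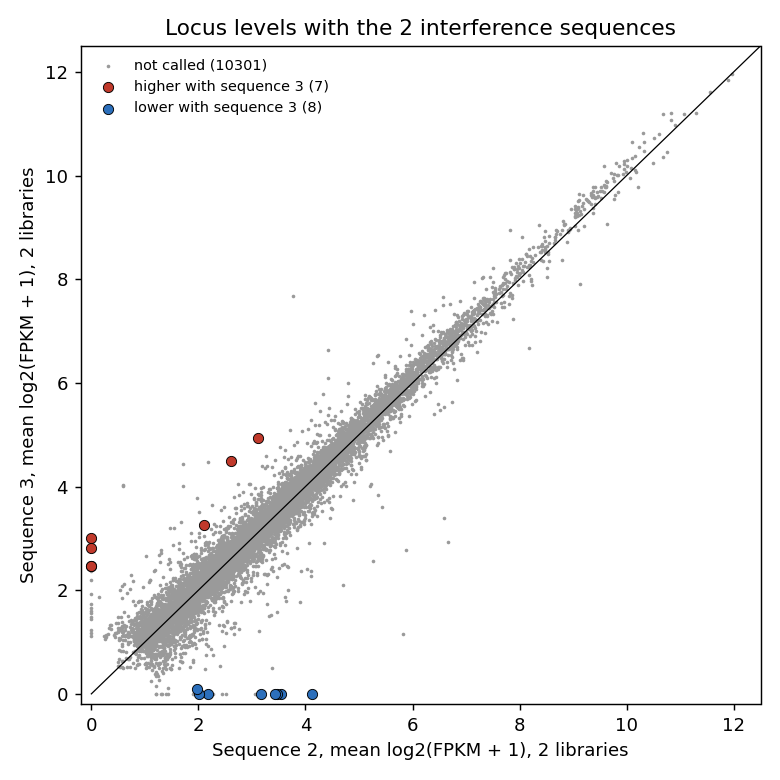
Mean log2(FPKM + 1) of each tested locus over the 2 libraries of sequence 2 (horizontal axis) and the 2 libraries of sequence 3 (vertical axis), with the line of equality. Most points follow the line, and the 15 called loci (red, 7 higher with sequence 3; blue, 8 lower) lie at low levels, with many on an axis because they were at 0 in one group.

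The 8 loci that were lower with sequence 3 are called L1 to L8 here, and the 7 that were higher are called H1 to H7, each in order of the size of the difference. All 15 had groups that did not overlap. For comparison, without a test, both libraries of sequence 3 lay below both of sequence 2 at 11.6% of tested loci and above them at 26.8%. The split of these 1198 and 2768 loci followed the scaling, since after scaling to the same median they were 1616 and 2145, and after quantile normalization 1794 and 2021. The median log2 difference over all tested loci was 0.067 as deposited, 0.030 after median scaling and 0.010 after quantile normalization.

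Of the lower loci, 4 were present in the control libraries and with sequence 2 and were at 0 in both libraries of sequence 3. L2 (chromosome 2, 219086006 to 219093027, plus strand) had 12.4 and 11.0 FPKM in the controls, 9.47 and 11.9 FPKM with sequence 2 and 0 with sequence 3 (adjusted p = 0.00511 from limma). L3 (chromosome 18, 35679020 to 35908704, minus strand) had 11.2 and 8.08 FPKM in the controls, 10.2 and 9.86 FPKM with sequence 2 and 0 with sequence 3 (adjusted p = 0.00719 from limma). Both show the same order, with the control and sequence 2 libraries together and the sequence 3 libraries apart.

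L5 (ENSRNOG00000048308, chromosome 14, 2463643 to 2474780, minus strand) had 3.86 and 7.11 FPKM in the controls, 7.91 and 8.16 FPKM with sequence 2 and 0 with sequence 3 (adjusted p = 0.0289 from limma). L7 (chromosome 18, 29104261 to 29109577, plus strand) had 3.35 and 2.50 FPKM in the controls, 3.16 and 2.88 FPKM with sequence 2 and 0 with sequence 3 (adjusted p = 0.0497 from limma). L8 (chromosome 20, 28365988 to 28375791, plus strand) was alike but not wholly unlisted, with 2.83 and 2.81 FPKM in the controls, 3.12 and 2.76 FPKM with sequence 2, and 0 and 0.146 FPKM with sequence 3 (adjusted p = 0.0497 from limma). At these 5 loci (L2, L3, L5, L7 and L8) sequence 3 differed from control in the same model and sequence 2 did not. Of all tested loci, 2.86% differed from control with sequence 2 and 3.41% with sequence 3, and both contrasts share the controls. The called loci were chosen by a difference between the hairpins in this model, so this pattern is no separate result.

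The other 3 lower loci were listed with sequence 2 and at 0 in the controls and with sequence 3. L1 (chromosome 7, 140615663 to 140638999, plus strand) had 17.5 and 15.4 FPKM with sequence 2 (adjusted p = 0.00511 from limma). L4 (ENSRNOG00000007956, chromosome 15, 19690084 to 19716132, plus strand) had 8.65 and 11.2 FPKM with sequence 2 (adjusted p = 0.00919 from limma). L6 (chromosome 7, 65004567 to 65015574, plus strand) had 3.43 and 3.63 FPKM with sequence 2 (adjusted p = 0.0460 from limma). The control level of L4 is 0 only as starts and ends were counted, since replicate 2 of the controls listed an exon end and intron events of this locus at 4.37 FPKM.

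Among the higher loci, 3 were at 0 with sequence 2 and listed in the controls and with sequence 3. H2 (chromosome 5, 164560437 to 164585634, minus strand) had 6.46 and 7.61 FPKM in the controls, 0 with sequence 2, and 5.52 and 6.49 FPKM with sequence 3 (adjusted p = 0.00919 from limma). H3 (chromosome 4, 9809531 to 9810649, plus strand) had 3.23 and 4.02 FPKM in the controls, 0 with sequence 2, and 3.98 and 5.21 FPKM with sequence 3 (adjusted p = 0.0289 from limma). H4 (chromosome X, 3661418 to 3685506, plus strand) had 7.26 and 9.25 FPKM in the controls, 0 with sequence 2, and 4.21 and 4.87 FPKM with sequence 3 (adjusted p = 0.0199 from limma). At H2, H3 and H4 sequence 2 was lower than control by limma, and sequence 3 was not called against control. H1 (chromosome 6, 99433550 to 99433653, plus strand), a single start event of 104 bases, was the reverse, at 0 in the controls and with sequence 2 and at 6.67 and 7.42 FPKM with sequence 3 (adjusted p = 0.0113 from limma).

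The 3 loci listed in every library showed graded differences. H6 (ENSRNOG00000061425, chromosome 7, 141378557 to 141381897, plus strand) had 8.59 and 7.41 FPKM in the controls and 8.14 and 7.10 FPKM with sequence 2, against 25.6 and 33.8 FPKM with sequence 3. Its log2 difference between the hairpins was 1.82 (standard error 0.175, 95% interval 1.39 to 2.26, adjusted p = 0.0460 from limma), and the mean FPKM with sequence 3 was 3.90 times that with sequence 2. All of it was 1 start and 1 end, whose values were equal in each library. Control and sequence 2 libraries overlapped, and only the sequence 3 libraries stood above them.

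H5 (ENSRNOG00000049370, chromosome 19, 32770655 to 32785215, plus strand) had 13.0 and 16.4 FPKM in the controls, 4.83 and 5.39 FPKM with sequence 2, and 19.4 and 24.0 FPKM with sequence 3. The log2 difference was 1.89 (standard error 0.171, 95% interval 1.47 to 2.31, adjusted p = 0.0419 from limma). The controls lay between the hairpins, at 2 levels that overlapped neither. Against control, sequence 2 was lower (adjusted p = 0.0150 from limma) and sequence 3 was not called (adjusted p = 0.158 from limma). The files also list splicing events of H5. At the exon event from 32771662 to 32771758, the form the files name SKIP_OFF had 3.65 and 3.87 FPKM with sequence 2 and 15.6 and 22.0 FPKM with sequence 3, while the form named SKIP_ON had 1.18 and 1.51 FPKM against 2.00 and 1.97 FPKM. The larger part of the difference in level was thus in the SKIP_OFF form of this event. At the exon event from 32778231 to 32778335 the same values were listed under SKIP_ON, so the difference is not tied to a single skipping state.

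H7 (chromosome 1, 214249363 to 214252959, minus strand) was far below control with both hairpins. It had 473 and 467 FPKM in the controls, 3.19 and 3.40 FPKM with sequence 2, and 8.85 and 8.19 FPKM with sequence 3. The mean with sequence 2 was 0.702% of the control mean and that with sequence 3 was 1.81%. The log2 difference between the hairpins was 1.15 (standard error 0.108, 95% interval 0.88 to 1.41, adjusted p = 0.0460 from limma). None of H5, H6 and H7 was called when any 1 of the 6 libraries was left out, where their highest adjusted p from limma was 0.264, 0.314 and 0.309, with the direction kept.

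Leaving out a library says less about the loci at 0 in 1 hairpin. They drop out of the test when a library of the other hairpin is removed, and removing 1 of the 2 libraries at 0 cannot move their difference. The 4 calls of L1, L2, L3 and L4 in 4 such fits are therefore no sign of stability. H1, H2 and L5 were called in 2 of 4 fits each, and H3, H4, L6, L7 and L8 in 0 of 4, where the adjusted p from limma reached 0.199, 0.176, 0.145, 0.145 and 0.164.

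**Figure D3:**
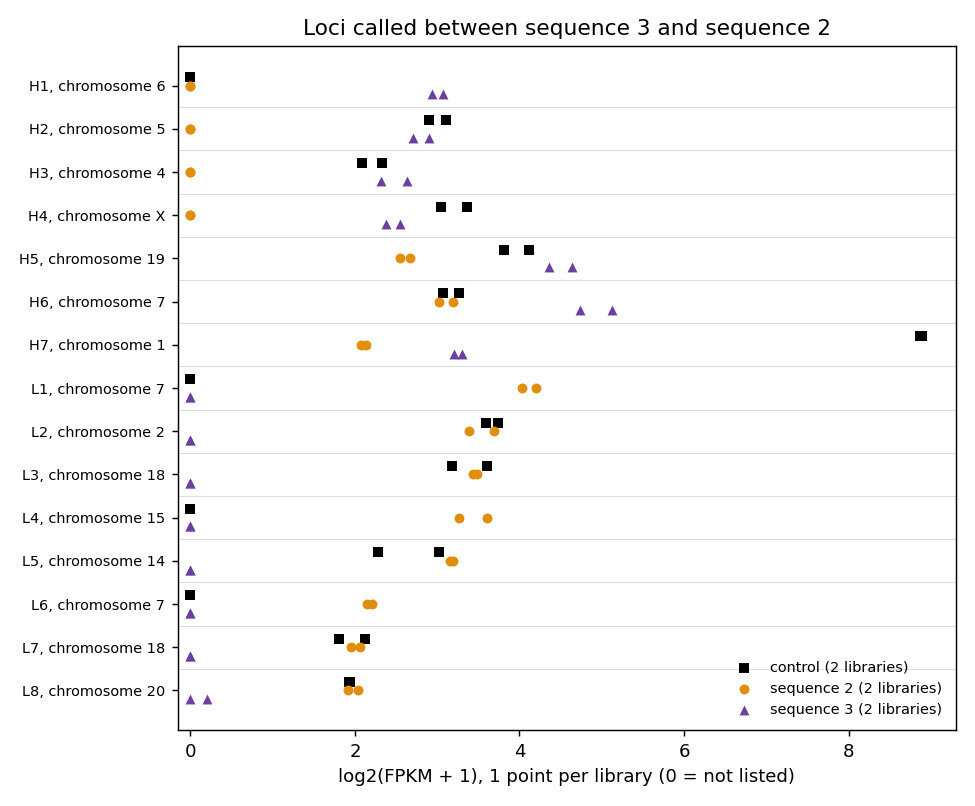
Levels of the 15 called loci as log2(FPKM + 1), 1 point per library, with control as squares, sequence 2 as circles and sequence 3 as triangles; points at 0 were not listed and overlie each other. At L2, L3, L5, L7 and L8 the controls lie nearer to sequence 2, at H2, H3 and H4 nearer to sequence 3, and H7 is far below control with both.

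Neighbouring loci bear on some of the 0 values. Of the 15 called loci, 4 overlapped another locus on the same strand, all of them lower loci (L1, L2, L3 and L8). The locus overlapping L1, from 140615247 to 140638318 with the same Ensembl ID, had 11.6 and 9.96 FPKM with sequence 2 and 26.0 and 5.35 FPKM with sequence 3. The sum of both was 29.0 and 25.3 FPKM with sequence 2 and 26.0 and 5.35 FPKM with sequence 3, so that 1 sequence 3 library lay among the sequence 2 libraries. For L2 the same-strand locus of the same ID had 41.9 and 6.61 FPKM with sequence 2 and 57.8 and 39.6 FPKM with sequence 3, and the sums of both, 51.3 and 18.5 against 57.8 and 39.6 FPKM, overlapped. A locus on the other strand across L2, also under this ID, had 346 to 461 FPKM in the 4 libraries. Across L1, a locus on the other strand under its ID had 117 to 178 FPKM. Another (140614752 to 140617721), not under its ID, covered the start of L1 and had 234 to 337 FPKM. Whether the counting used strand is unknown, so reads of the strands may not have been told apart.

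When all loci of an Ensembl ID were summed, the log2 difference at L1 was -0.24 (adjusted p = 0.742 from limma) and at L2 0.11 (adjusted p = 0.847 from limma). The calls at these 2 loci were therefore lost in the sum, which includes the loci of the other strand under the same ID. H5, H6, H7, L6, L7 and L8 kept their differences but missed the threshold (adjusted p = 0.0502 to 0.0542 from limma). L3, which has no Ensembl ID, and L8 were overlapped on their strand by a locus that did not share an ID with them. Summed with that locus, both kept their direction. The sums for L3 were 18.4 and 18.2 FPKM with sequence 2 against 8.07 and 3.37 FPKM with sequence 3. Those for L8 were 6.04 and 5.85 against 2.22 and 1.98 FPKM. L4 began 1169 bases after the end of another locus on its strand (42.8 to 50.5 FPKM in the 4 libraries), and L6 104 bases after one (21.9 to 30.8 FPKM).

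At several called loci the listed starts and ends differed between replicates. At H4, replicate 1 of sequence 3 used the start at 3661418 to 3661554, at 4.21 FPKM, whereas replicate 2 used that at 3662354 to 3662807, at 4.87 FPKM, which was also listed in both controls at 7.26 and 5.60 FPKM. H2 was listed by its start alone in replicate 1 of sequence 3 and by its end alone in replicate 2, and L6 by its end in replicate 1 of sequence 2 and its start in replicate 2. Replicates of sequence 2 also differed at L1, whose end was listed only in replicate 2, at L4, whose end was listed only in replicate 1, and at L7, where 1 start was listed only in replicate 1 at 0.775 FPKM. The level of H2 and of L6 thus rested on a start in one replicate and on an end in the other.

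Presence in one library and absence from another was frequent among replicates too. Over all loci in the files, 121 were listed in both libraries of sequence 2 and neither of sequence 3, and 103 in both of sequence 3 and neither of sequence 2. Between the replicates of sequence 2, 512 loci were listed only in replicate 1 and 727 only in replicate 2, and for sequence 3 these were 763 and 617. At 5 FPKM or more wherever listed, 6 loci were listed only with sequence 2 and 2 only with sequence 3. Between replicates the counts were 21 and 18 for sequence 2 and 26 and 39 for sequence 3. A count between the hairpins needs both libraries of each hairpin to agree, and a count between replicates does not. The former is the stricter condition, so the sizes of these counts cannot be compared directly.

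The largest differences that were not called show the same spread. These were the 8 highest and 8 lowest uncalled loci with an Ensembl ID, a group mean of at least 5 FPKM and groups that did not overlap. Of these, a locus on chromosome 3 (150218230 to 150227405) had 61.0 and 50.1 FPKM with sequence 2, 3.90 and 0 FPKM with sequence 3 and 0 in both controls (adjusted p = 0.175 from limma). A locus on chromosome 10 (40742469 to 40744092) had 1.30 and 0 FPKM with sequence 2, 20.4 and 11.3 FPKM with sequence 3 and 0 in both controls (adjusted p = 0.120 from limma). A locus on chromosome 7 (12692665 to 12764656) had 184 and 0 FPKM with sequence 2, 187 and 224 FPKM with sequence 3, and 0 and 156 FPKM in the controls (adjusted p = 0.731 from limma).

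Loci listed in all 4 libraries give differences that do not rest on a 0. Of the 10023 such loci, 38 had their groups at least 2-fold apart, measured between the nearest libraries, 24 higher and 14 lower with sequence 3. Lowering the fold to 1.5 gave 125 higher and 56 lower. Of the 38, 15 reached 5 FPKM in at least 1 library, 11 higher and 4 lower. These 15 were chosen by their values, so they are described without a test of the set. They include H5, H6 and H7, and no other was called. When only loci listed in all 4 libraries were tested, 0 were called by limma (556 had an unadjusted p under 0.05), a restriction made after the data were seen, since H5, H6 and H7 then missed the threshold.

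These loci were chosen by a difference between the hairpins, which favours controls on one side of sequence 2. No share over all tested loci was counted, so the position of the controls is a description. At all 4 loci lower with sequence 3 both controls lay below both libraries of sequence 2 and overlapped those of sequence 3. A locus on chromosome 1 (101805166 to 101819478) had 7.76 and 8.85 FPKM with sequence 2, 2.85 and 2.84 FPKM with sequence 3, and 2.54 and 2.99 FPKM in the controls (log2 difference -1.27, 95% interval -1.65 to -0.90, adjusted p = 0.0911 from limma). A locus on chromosome 17 (76385102 to 76410294) had 16.2 and 15.4 FPKM with sequence 2, 6.01 and 7.15 FPKM with sequence 3, and 7.89 and 7.15 FPKM in the controls (adjusted p = 0.0911 from limma). At both, sequence 2 was called higher than control by limma and sequence 3 was not called.

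Of the 11 higher loci, 8 had both controls above sequence 2, and 2 of those 8 (H7 and a locus on chromosome 14) had both controls above sequence 3 as well. A locus on chromosome 15 (8125259 to 8178252) had 17.3 and 19.6 FPKM with sequence 2, 40.8 and 45.7 FPKM with sequence 3, and 45.4 and 35.8 FPKM in the controls (adjusted p = 0.120 from limma). A locus on chromosome 3 (57318795 to 57389901) had 2.84 and 3.25 FPKM with sequence 2, 7.74 and 7.54 FPKM with sequence 3, and 7.06 and 6.48 FPKM in the controls (adjusted p = 0.103 from limma). The opposite pattern, in which sequence 3 left the level shared by the other groups, was seen at H6 and at a locus on chromosome 10 (38877422 to 38906482) with 14.8 and 13.9 FPKM with sequence 2, 31.8 and 33.1 FPKM with sequence 3, and 14.2 and 17.3 FPKM in the controls (adjusted p = 0.0911 from limma).

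H7 is one of a group of loci that were far below control on the mean of both hairpins. Taking the mean log2(FPKM + 1) of all 4 libraries against that of the controls, 75 loci in the files were at least 10-fold lower, with control means of 9.97 to 2050 FPKM. This choice uses the controls and the mean of both hairpins, not the difference between them. It lets in loci that were not far below control in every library. A locus on chromosome 1 (11903552 to 11973056) had 564 FPKM in replicate 2 of sequence 3, which was 248% of its control mean. A locus on chromosome 8 (45543112 to 45562574) had 170 and 176 FPKM in replicate 1 of sequences 2 and 3. Another there (181227 to 182331) had 256 FPKM in replicate 2 of sequence 3. Both libraries of sequence 3 lay above both of sequence 2 at 33 of the 75 loci (44%) and below them at 3 (4%). Over every locus in the files these shares were 22.5% and 10.5%. Over the 2646 loci with a control mean of at least 20 FPKM they were 33.9% and 7.79%. Over the 3500 loci whose highest level in the 4 libraries was 1 to under 5 FPKM they were 21.4% and 14.6%. The group was put together with these results known, so no test of it is given. After scaling to the same median the counts were 32 and 3. The excess over all loci was smaller, in percentage points, without any 1 of the 4 libraries. The share of the 75 loci that were higher with sequence 3 without overlap was 45.3% without replicate 1 of sequence 2, against 38.2% of every locus in the files, and 48% against 31.2% without its replicate 2. It was 54.7% against 44.8% without replicate 1 of sequence 3, and 58.7% against 38.1% without its replicate 2, the library that stood apart.

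The median level of the 75 loci was 61.7 and 58.0 FPKM in the controls, 0.412 and 0.367 FPKM with sequence 2, and 1.03 and 1.07 FPKM with sequence 3. As a percentage of the control mean of each locus, the median was 0.487% and 0.414% with sequence 2 and 1.51% and 1.74% with sequence 3. At 27 of the loci both libraries of sequence 2 were at 0, and at 16 both of sequence 3, and these 16 were at 0 in all 4 libraries. Among the 32 loci listed in all 4 libraries, the ratio of the sequence 3 mean to the sequence 2 mean had a median of 1.74 (quartiles 1.37 and 2.29), and 25 were higher with sequence 3 and 1 lower without overlap. Over all 10023 tested loci listed in all 4 libraries the median ratio was 1.06. Of these, 2719 (27.1%) were higher with sequence 3 and 1138 (11.4%) lower without overlap.

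**Figure D4:**
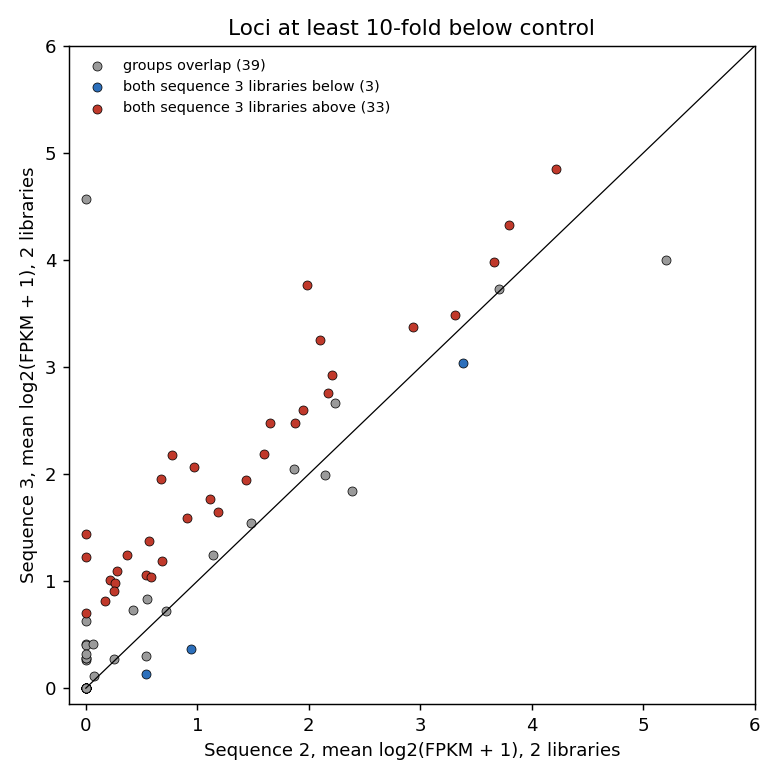
Mean log2(FPKM + 1) with sequence 2 (horizontal axis) and sequence 3 (vertical axis) for the 75 loci at least 10-fold below control, with the line of equality. The 33 loci with both sequence 3 libraries above both sequence 2 libraries (red) lie above the line, 3 lie below it (blue), and in 39 the groups overlap (grey), 16 of which share the point at 0.

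The locus with the highest control level of the group, on chromosome 14 (17210733 to 17212930), had 1990 and 2105 FPKM in the controls, 2.16 and 3.94 FPKM with sequence 2, and 13.3 and 12.0 FPKM with sequence 3 (log2 difference 1.79, 95% interval 1.25 to 2.33, adjusted p = 0.0911 from limma). The next, on chromosome 1 (252906234 to 252940608), had 873 and 799 FPKM in the controls, 0.670 and 0.526 FPKM with sequence 2, and 3.23 and 2.53 FPKM with sequence 3 (log2 difference 1.28, 95% interval 0.93 to 1.63, adjusted p = 0.0773 from limma). Both were higher in each library of sequence 3 and remained under 1% of their control mean. The locus on chromosome 1 was under 1 FPKM in both libraries of sequence 2. It passed the filter only through sequence 3, so its p-value and interval are a description.

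The counts per chromosome were small. No share over all loci of a chromosome was counted beside them, so they are a description. On chromosome 16, 5 of the 75 loci were found and 0 were higher with sequence 3 without overlap, as were 0 of 3 on each of chromosomes 3 and 8 and 0 of 2 on each of chromosomes 5 and 15. The loci on chromosome 16 were at 0 in every hairpin library, apart from 0.751 FPKM at a single locus in replicate 2 of sequence 3. Those on chromosome 15 were alike, apart from 0.764 FPKM at a single locus in replicate 1 of sequence 3. Their counts thus rest on missing listings and show no difference between chromosomes. On chromosome 12, 6 of the 75 loci were found, and at all 6 both libraries of sequence 3 were above both of sequence 2. One of them, from 47444104 to 47456894, had 0.524 and 0.446 FPKM with sequence 2 and 1.82 and 1.39 FPKM with sequence 3, from 107 and 109 FPKM in the controls. Another, from 47469598 to 47482961, had 1.17 FPKM in each library of sequence 2 and 2.37 and 2.45 FPKM with sequence 3, from 111 and 105 FPKM in the controls. Apart from this locus, those on chromosome 12 were under 1 FPKM in both libraries of sequence 2. On chromosome 2, 7 of the 75 loci were found, 4 of them higher with sequence 3 without overlap and 0 lower. The one from 248276709 to 248293784 had 3.62 and 3.60 FPKM with sequence 2 and 6.99 and 6.21 FPKM with sequence 3, from 332 and 300 FPKM in the controls.

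Of the 3 loci in the opposite direction, that with the highest level, on chromosome 10 (70411738 to 70435156), had 10.2 and 8.68 FPKM with sequence 2 and 8.59 and 6.01 FPKM with sequence 3, from 259 and 232 FPKM in the controls. Of the 75 loci, 38 passed the filter and were tested between the hairpins, and 1, H7, was called.

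Just inside the threshold were L6, L7 and L8, described above. Just outside it were the locus on chromosome 1 from 252906234, a locus on chromosome 2 (256897772 to 256915944) with 0.737 and 0.684 FPKM with sequence 2 against 3.71 and 3.32 FPKM with sequence 3, and a locus on chromosome 11 (37891156 to 37914983) that was at 0 in both libraries of sequence 2 and had 1.43 and 1.26 FPKM with sequence 3 (adjusted p = 0.0716 from limma). All 3 just outside were far below control with both hairpins, at 60.9 to 873 FPKM in the control libraries. They were under 1 FPKM in both libraries of sequence 2, so they too passed the filter only through sequence 3 and had to differ. Their p-values are a description.

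For most loci the data bound the difference between the hairpins on the log2(FPKM + 1) scale without a call. The 95% interval of the log2 difference was taken for each locus alone. It lay within 2-fold either way on that scale at 8394 of 10316 loci (81.4%), with a median distance of 0.456 from the estimate to either end. At low levels this does not bound FPKM itself within 2-fold. The locus on chromosome 12 from 47469598 counted as inside, with an interval of 0.358 to 0.951. Its ratio of mean FPKM was 2.07. The share was 70.3% at mean levels under 5 FPKM, 85.4% from 5 to 20 FPKM, 89.9% from 20 to 100 FPKM and 89.1% at 100 FPKM and over. The estimate itself exceeded 2-fold on this scale at 207 loci, 102 of them under 5 FPKM. At the loci outside those 8394 the interval reached 2-fold or more on this scale on at least 1 side.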

How the data were processed

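RNA-seq tables of 6 libraries were used, 2 with control virus and 2 each with interference sequences 2 and 3, grouped by sample title. Sequence and replicate were read from the numbers that end a title. The tables deposited by the authors give FPKM per event of a locus, an event being a start or end of a transcript or a splicing choice. Among the programs in the submitters' processing notes are StringTie (1.0.4), HISAT2 (2.0.1) and Trimmomatic (0.30), followed by HTSeq (0.6.1), SAMtools (0.1.18) and bcl2fastq (2.17.1.14), whose roles the notes leave unsaid. Neither the genome build nor the program behind the event lists is given in the sources used here. Counts are not in these tables, so the depth is unknown.

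After repeated event IDs were dropped, the level of a locus was the larger of its summed starts and its summed ends, or 0 if unlisted. In the 4 hairpin libraries both sums were present in 35733 cases and equal within 0.1% in 74.3%. A linear model of log2(FPKM + 1) was fitted by limma (3.58.1, R 4.3.3) using a trended prior variance, 1 mean for each of 3 groups over all 6 libraries, and two-sided p-values adjusted by Benjamini-Hochberg over 10316 loci. A difference on this scale understates that of low loci. No fold is given against a group at 0. The fit was tested on simulated data. Tables were made with Python 3.11.15 and pandas 2.3.3.

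The members and lists were chosen with earlier results of these data known. Named loci were every called locus, the 3 on each side of the threshold, and the 8 largest uncalled differences in each direction, of which 3 are described; loci far below control and loci 2-fold apart in all 4 libraries were singled out after their values were seen. The rule for uncalled loci asked for a gene symbol, and an Ensembl ID took its place. Ensembl IDs are printed for 2 loci in each direction, also chosen after their values were seen. The planned gene lists, cell type markers and SLC2A10 level were not analysed here, because no ID was paired with a name.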

Additional observations from a re-analysis of the deposited data

Results flagged for a closer look

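The direct contrast of sequence 3 with sequence 2, which compares their effects against the shared controls, passed the threshold at 15 loci. Of these, 11 were at 0 in both libraries of one sequence and, with L8, entered the test only through the sequence where they were high, so that their p-values are a description. H5, H6 and H7 entered through both sequences, and their calls were lost when any 1 library was left out. For the loci higher with sequence 3, the adjusted p from limma was 0.0113 for H1, 0.00919 for H2, 0.0289 for H3, 0.0199 for H4, 0.0419 for H5, and 0.0460 for both H6 and H7. For those lower with sequence 3, it was 0.00511 for both L1 and L2, 0.00719 for L3, 0.00919 for L4, 0.0289 for L5, 0.0460 for L6, and 0.0497 for both L7 and L8. At 7 of the 15 loci only sequence 2 differed from control by limma, at 7 only sequence 3, and at H7 both. Of all tested loci, 2.86% differed from control with sequence 2 and 3.41% with sequence 3. The 15 loci were chosen by a difference between the hairpins in the same fit, and both contrasts share the controls. A call against control with only one hairpin is therefore no separate result.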

How the results depend on the processing

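Counts are of loci called by limma between sequence 3 and sequence 2, 8 lower and 7 higher in the test reported, and the median is the log2 difference over the 75 loci far below control, 0.323 in the report. Where no cause is given, the cause was not tested. Each omission of 1 library gave 0 to 16 lower and 0 to 2 higher loci and a median of 0.304 to 0.403. Whether the replicate numbers pair the libraries cannot be told from 1 deviation per group. The correlation of deviations was -0.0899 between the 2 sequences, -0.114 between control and sequence 2 and 0.2 between control and sequence 3. The replicate block gave 4 lower and 2 higher. With the 4 hairpin libraries alone 1 was higher. A pseudocount of 0.1 gave 5 lower and a median of 0.702, and one of 0.5 a median of 0.486, by construction. No filter gave 5 and 4, with more loci tested. At least 1 FPKM in all 4 libraries gave 0 and 0, as did only loci listed in all 4 libraries, a setting chosen after seeing the data. Both drop the loci at 0, and 507 of 9326 and 556 of 10023 loci had an unadjusted p under 0.05. Quantile normalization gave 5 lower and a median of 0.571 over the 38 tested loci. The median over these 38 was 0.561 in the test reported. Summed starts gave a median of 0.108, and summed ends gave 5 and 2 and a median of 0.0284. Sums per Ensembl ID gave 3 and 4, with L2 reversed at 0.11. An adjusted p under 0.01 gave 4 and 1, and an unadjusted p under 0.05 gave 154 and 411 of 10316 loci. Over all comparisons of a called locus with an alternative, the call held in 126 and was lost with the same direction in 101, which is no sign of stability for the 12 loci that entered the test through one sequence. The gene list and SLC2A10 alternatives were not run. Depth is unknown, so its limits cannot be given.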
